A study of Mus musculus with 24 samples.

Results

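The genes described here encode hydrolases, membrane proteins and the proton pump of the lysosome, 39 genes in all out of 37979 in the deposited table. They were chosen by name: each gene whose symbol stood in a list of well known lysosomal genes was taken, with the cathepsins left out. The rule uses names and no measured value, but the list was drawn up with earlier results of these data known. Each of the 39 matched 1 row of the table. All 39 passed the filter on low values, which kept the 17156 genes whose mean reached 1 FPKM in any group. FPKM, fragments per kilobase of transcript and per mapped fragments, is a level scaled for transcript length and for the size of the library.

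The study compared myeloid cells sorted from lungs of male C57BL/6 mice, 10 to 16 weeks old, without a tumour or after injection of luciferase-bearing Lewis lung carcinoma cells (LLC-Luc) into the left lobe. There were 24 RNA sequencing libraries in 8 groups of 3, each library from cells pooled over 3 to 5 mice, with replicates from independent experiments. MacA cells were sorted as SiglecF+ and CD11c+, from naive mice (MacA-N) and 2 weeks after injection (MacA-2wk). The other populations were CD11b+ and Ly6G-: MacB1-N was CD64 low and CD11c+ and came from naive mice, MacB2 was CD64 medium and CD11c- and came from naive mice and from 2 and 3 weeks (MacB2-N, MacB2-2wk, MacB2-3wk), and MacB3 was CD64 high and CD11c+ and came from 2 and 3 weeks (MacB3-2wk, MacB3-3wk). Naive groups used all lobes and tumour groups only the lobe that held the tumour, so tumour and lobe cannot be told apart. All MacA libraries were on 1 run lane, and the MacB libraries were on 3 others by replicate number, so MacA against MacB cannot be told apart from the lane.

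Lysosomes are the acidic compartments in which macrophages break down what they engulf. A proton pump, the V-ATPase, acidifies them: its membrane sector V0 carries the protons and its cytosolic sector V1 hydrolyses ATP. Glycosidases and lipid hydrolases then digest sugars and lipids, carrier proteins such as Npc2 hand lipids on, and heavily glycosylated proteins such as Lamp1 line the membrane. Tfeb is a transcription factor known to bind a short palindromic motif, the CLEAR element, in promoters of many lysosomal genes.

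Part of that motif, the string TCACGTG, was looked for on both strands (the reverse complement is CACGTGA). The search covered RefSeq promoters of GRCm38.p6, from 250 bases before to 50 after each start. Of the 39 genes, 34 had an entry, and 10 of these (29.4%) held TCACGTG, against 1160 of all 27025 genes (4.29%). The palindrome TCACGTGA, which contains that string, was in 6 of the 34 (17.6%) and in 304 of all genes (1.12%). The motif is known from promoters of lysosomal genes, and the 39 were chosen as such. Their higher shares are thus no result of these data. The 10 were Lamp1, Mcoln1, Cln3, Gla, Glb1, Gaa, Naglu, Atp6v0d1, Atp6v0e and Atp6v1a. The stretches of 4 of them are shown, those in which the matches before the start and the bases around them lie outside the gene as annotated in GENCODE M21; they were not chosen by how the genes moved. Capitals mark each match.
Lamp1, chr8:13159083-13159160, plus strand: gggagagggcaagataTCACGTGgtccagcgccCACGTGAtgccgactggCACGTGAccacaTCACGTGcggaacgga
Gla, chrX:134601177-134601249, minus strand: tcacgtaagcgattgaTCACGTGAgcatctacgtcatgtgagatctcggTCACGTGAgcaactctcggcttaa
Glb1, chr9:114401013-114401051, plus strand: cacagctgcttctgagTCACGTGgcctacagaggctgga
Gaa, chr11:119267806-119267844, plus strand: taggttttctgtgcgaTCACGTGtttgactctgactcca
Lamp1 held 4 matches between bases -62 and -10 from its start, Gla 2 copies of TCACGTGA, and Glb1 and Gaa 1 match each. A match is a string of letters and says nothing on whether a factor was bound.

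Across the groups, transcripts of these genes were most often lowest in MacB1-N and most often highest in MacA or MacB3. The lowest group mean was in MacB1-N for 25 of the 39 genes and in MacB2-N for 6. The highest mean was in MacA-N for 11, MacA-2wk for 7, MacB3-2wk for 11 and MacB3-3wk for 6. Together the 39 genes took 1.62% to 2.09% of the protein-coding FPKM in the MacA-N libraries, 1.00% to 1.24% in MacB1-N, 1.12% to 1.39% in MacB2-N and 1.68% to 2.10% in the MacB3 libraries. The share was 1.63%, 1.59% and 1.24% in MacA-2wk, 1.33% to 1.52% in MacB2-2wk and 1.13% to 1.303% in MacB2-3wk. MacA-N and MacB3 did not overlap any MacB1-N or MacB2 group, while MacA-2wk replicate 3 lay within the range of MacB2-N. In sorted pools of cells, fewer cells of a type and less RNA per cell cannot be told apart.

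**Figure D1:**
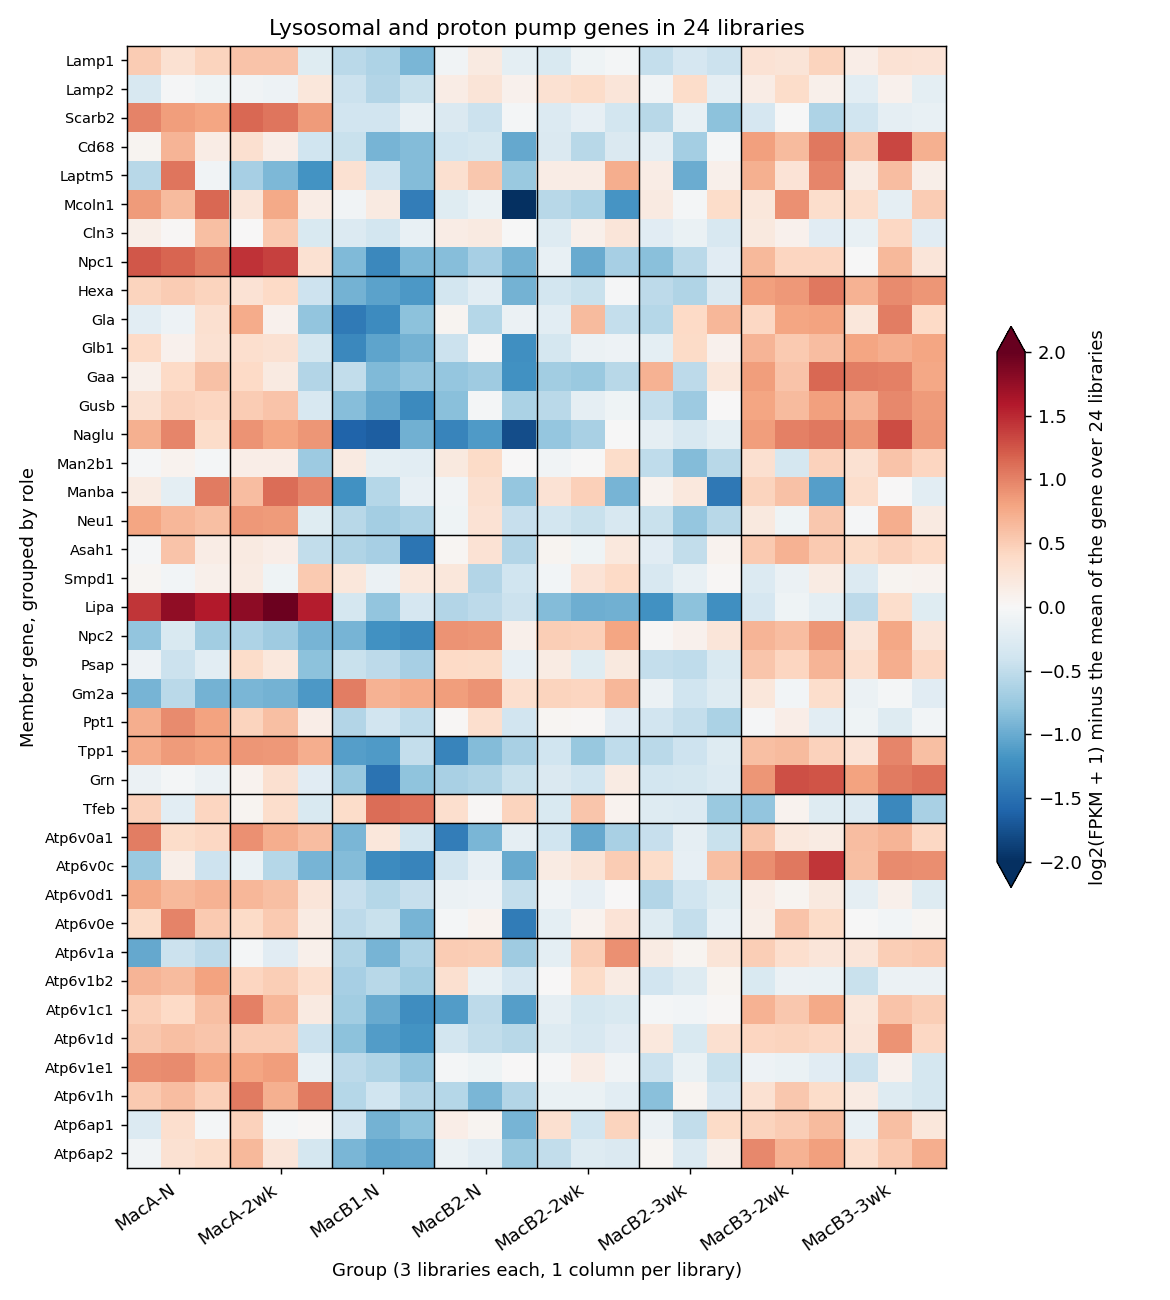
Heat map of the 39 lysosomal genes (rows, grouped by role) in the 24 libraries (columns, 3 per group); colour is log2(FPKM + 1) minus the mean of the gene over all libraries, red above and blue below it. The MacB1-N columns are mostly blue, with Gm2a and Tfeb as red exceptions, and the MacA and MacB3 columns are mostly red.

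Some genes were abundant in every library and others low throughout. By the mean of all libraries, Laptm5, a membrane protein of lysosomes in blood cells, was the most abundant of the 39 (group means of 1506 to 4513 FPKM), followed by Psap, the precursor of the saposins (664 to 1420), and Cd68, a glycosylated membrane protein used as a macrophage marker (545 to 1703). Smpd1, acid sphingomyelinase, was the lowest (8.60 to 11.9) and also had the flattest profile, with a ratio of 1.39 between its highest and lowest group mean. Lipa, the acid lipase that cleaves cholesteryl esters, had the widest ratio, 7.36.

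Before the comparisons, 3 libraries need naming. In MacA-2wk replicate 3 the summed level of 10 fibroblast markers was 435 FPKM, against 63.6 and 48.8 in the other libraries of the group. Its sums of 10 endothelial markers (296 against 78.6 and 69.3) and of 10 epithelial markers (1137 against 129 and 154) were higher as well. Protein-coding genes held 10.3% of its summed FPKM, against 22.2% and 21.4% in the others of its group. Over all 24 libraries this share ran from 10.3% to 27.6%. In MacB2-N replicate 3 the sum of 10 endothelial markers was 499 FPKM, against 141 and 153, and in MacB2-2wk replicate 2 it was 561, against 178 and 206. Results that change without them are given both ways. The sort markers followed the labels: Siglecf averaged 231 FPKM in MacA-N, 146 in MacA-2wk and at most 5.25 in any MacB group, and Ly6g was listed at 0 in all libraries. Itgam (CD11b) averaged 2.30 FPKM in MacA-N, 17.3 in MacA-2wk and 213 to 300 in the MacB groups.

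In naive lungs, MacB1-N held less of most lysosomal transcripts than MacA-N. Calls needed a limma adjusted p below 0.05 together with a change of 2-fold or more. By this rule 24 of the 39 genes were lower in MacB1-N, where 8.71% of all tested genes were lower, and 1 was higher, where 15.0% of all were. The median log2 fold change was -1.14 over the 39 genes and 0.12 over all genes tested; all fold changes here are on the log2(FPKM + 1) scale. The genes that were lower were 5 of 8 membrane proteins, 7 of 9 glycosidases, 3 of 7 genes for lipid hydrolases, carriers and activators, and 8 of 12 pump and accessory subunits, with Tpp1.

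Lipa showed the clearest gap. It stood at 259, 329 and 289 FPKM in MacA-N, at 74.3, 54.9 and 75.2 in MacB1-N and at 63.3, 66.3 and 70.2 in MacB2-N. Every MacA-N library was above every naive MacB library, and the log2 fold change was -2.09 (SE 0.19, adjusted p = 7.65e-08) for MacB1-N and -2.11 (SE 0.19, adjusted p = 5.93e-08) for MacB2-N. Naglu, which removes N-acetylglucosamine from heparan sulfate, was at 38.4, 46.5 and 29.9 FPKM in MacA-N, 6.88, 6.64 and 11.4 in MacB1-N, and 8.67, 9.94 and 6.03 in MacB2-N. It too was separated without overlap, with a log2 fold change of -2.09 against MacA-N in either group (SE 0.23, adjusted p = 8.16e-07 and 7.49e-07). Npc1, the membrane protein that exports cholesterol from lysosomes, had 119, 112 and 103 FPKM in MacA-N and 26.4, 19.7 and 26.1 in MacB1-N, a log2 fold change of -2.17 (SE 0.27, adjusted p = 3.38e-06). Tpp1, a tripeptidyl peptidase, had 101, 110 and 105 FPKM in MacA-N and 27.5, 26.9 and 42.8 in MacB1-N (log2 fold change -1.70, SE 0.20, adjusted p = 1.98e-06).

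Gm2a ran the other way. This activator presents the ganglioside GM2 to Hexa, and it was at 153, 200 and 150 FPKM in MacA-N, 593, 471 and 485 in MacB1-N, and 520, 540 and 366 in MacB2-N. All 6 naive MacB libraries were above all 3 MacA-N libraries (log2 fold change 1.62, SE 0.17, adjusted p = 4.32e-07 for MacB1-N; 1.49, SE 0.17, adjusted p = 1.2e-06 for MacB2-N). Hexa itself, the alpha subunit of beta-hexosaminidase, was lower in MacB1-N, with 170, 177 and 170 FPKM in MacA-N against 64.2, 58.3 and 55.5 (log2 fold change -1.52, SE 0.20, adjusted p = 8.37e-06).

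Pump genes were lower in MacB1-N in both sectors. In V1, 5 of 6 were called: Atp6v1d (log2 fold change -1.61), Atp6v1e1 (-1.52), Atp6v1c1 (-1.47), Atp6v1b2 (-1.34) and Atp6v1h (-1.06). Atp6v1a, the catalytic subunit, was not, at 33.1, 50.7 and 47.3 FPKM in MacA-N and 44.7, 35.5 and 44.6 in MacB1-N (log2 fold change -0.06, SE 0.28, adjusted p = 0.928). In V0, Atp6v0e (-1.27) and Atp6v0d1 (-1.20) were called and Atp6v0a1 (-0.96) and Atp6v0c (-0.80) were under the fold minimum; Atp6v0a1 was called without MacA-N replicate 2 (-1.07), MacA-N replicate 3 (-1.05) or MacB1-N replicate 2 (-1.25). Cd68 had 943, 1446 and 998 FPKM in MacA-N and 666, 476 and 493 in MacB1-N (-1.04, adjusted p = 0.00513), and Lamp1 had 401, 350 and 386 against 195, 184 and 149 (-1.11, adjusted p = 9.39e-05).

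Several of these calls rested on single libraries. Without MacB1-N replicate 3, Lamp1 (-0.997), Cd68 (-0.97), Asah1 (-0.87) and Mcoln1 (-0.83, adjusted p = 0.216) were not called. Without MacA-N replicate 2, Cd68 (-0.85), Asah1 (-0.97) and Mcoln1 (adjusted p = 0.0568) were not, and without MacB1-N replicate 2, Cd68 (-0.95), Gaa (-0.995) and Gla (adjusted p = 0.0641) were not. Without MacA-N replicate 3, Gaa (-0.97), Gla (adjusted p = 0.0886) and Mcoln1 (adjusted p = 0.115) were not, without MacB1-N replicate 1 Gla (adjusted p = 0.0789) was not, and without MacA-N replicate 1 Mcoln1 (adjusted p = 0.0807) was not. Of all 25 calls, 17 were kept under every alternative.

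Markers of other cells and of other macrophages moved with MacB1-N. Of 12 alveolar macrophage markers 11 were lower than in MacA-N (sums of 781 to 1375 against 9824 to 11992 FPKM). Of 8 tested dendritic cell markers 7 were higher, with the sum of the 10 on the list at 781 to 1004 FPKM in MacB1-N and at most 90.8 in any library of the other groups. Of 10 endothelial markers 9 were higher (sum of 473 to 629 against 98.0 to 141), of 10 fibroblast markers 9 (224 to 442 against 37.1 to 73.2), and of 8 nonclassical monocyte markers 7 (3398 to 5450 against 396 to 680). Of 10 tested T, NK and B cell markers 8 were higher, with the sum of the 12 on the list at 48.3 to 84.1 against 6.41 to 8.15. Epithelial marker sums were larger, 3613 to 13016 FPKM in MacB1-N and 710 to 5400 in MacA-N, with overlap. Of these 10 markers 3 were higher and 2 lower. Of 11 interstitial and monocyte-derived macrophage markers 6 were higher and 2 lower (1612 to 2269 against 671 to 809 FPKM). Of 9 classical monocyte markers 5 were higher and 3 lower, with sums of 474 to 779 against 4387 to 4920. Chil3 is on this list and on the alveolar one. No gene of the lists named here was at 0 in all MacB1-N libraries. Their part in the lower lysosomal transcripts was not tested.

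MacB2-N was compared with MacA-N in the same way. Here 12 of the 39 were lower (10.2% of all genes tested) and 2 were higher (10.7% of all), with a median log2 fold change of -0.77 against 0.03 over all genes. The lower genes were Lipa, Naglu, Npc1, Mcoln1 (-1.81), Tpp1 (-1.75), Atp6v0a1 (-1.43), Atp6v1c1 (-1.40), Gaa (-1.25), Atp6v1h (-1.23), Scarb2 (-1.12), Atp6v0e (-1.09) and Atp6v1d (-1.04). Mcoln1, a calcium channel of the lysosomal membrane, had 172, 147 and 210 FPKM in MacA-N and 80.1, 86.1 and 16.7 in MacB2-N, so that replicate 3 was far below its group. Mcoln1 was still called without that replicate, but part of the size of -1.81 came from it. Without MacB2-N replicate 3, Atp6v0e (-0.62) and Atp6v1d (-0.998) were not called and Atp6v1a was (1.16, adjusted p = 0.00131); without MacA-N replicate 2, Atp6v0e (-0.91) was not. Without MacB2-N replicate 2, Cd68, Hexa, Glb1, Gusb, Ppt1 and Atp6v0d1 were also called lower, between -1.001 and -1.13. Cd68 was called as well without MacA-N replicate 1 (-1.001) and Hexa without MacB2-N replicate 1 (-1.05). With only the compared groups fitted, Mcoln1 (limma adjusted p = 0.138), Atp6v0a1 (limma adjusted p = 0.0534) and Atp6v0e were not called. With a pseudocount of 5, Atp6v1d and Atp6v1h were not. Here too markers moved: all 12 alveolar macrophage markers were lower (442 to 737 against 9824 to 11992 FPKM). Of 9 classical monocyte markers 7 were higher and 1 lower. Their sums overlapped (4599 to 5506 against 4387 to 4920), and 1 of them, Chil3, is also on the alveolar list. Of 8 nonclassical monocyte markers 6 were higher and 1 lower (2259 to 3171 against 396 to 680). Of 11 interstitial and monocyte-derived macrophage markers 7 were higher and 1 lower (2119 to 3682 against 671 to 809). Of 10 epithelial markers 2 were lower and 0 higher, with sums of 3377 to 10348 against 710 to 5400 FPKM. No gene of these lists was at 0 in all 3 libraries, and their part was not tested.

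Npc2, the soluble cholesterol carrier that works with Npc1, separated the naive MacB groups. Its level was 327, 324 and 188 FPKM in MacB2-N, 91.7, 75.2 and 71.6 in MacB1-N and 101, 141 and 108 in MacA-N. All MacB2-N libraries were above all libraries of the other naive groups. The log2 fold change was 1.22 (SE 0.21, adjusted p = 0.000134) for MacB2-N against MacA-N and -1.77 (SE 0.21, adjusted p = 1.65e-05) for MacB1-N against MacB2-N. Npc2 was the 1 gene of 39 lower in MacB1-N than in MacB2-N (1.70% of all tested were lower), and none was higher (3.50% of all) in limma, with 17 of the 39 at an unadjusted p under 0.05 in either direction. The median was -0.44 against 0.09 over all genes; within run lanes 2, 3 and 7 it was -0.43, -0.62 and -0.13. Without MacB2-N replicate 3, 3 genes were called lower, Npc2, Asah1 (-1.07) and Atp6v1a (-1.21).

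**Figure D2:**
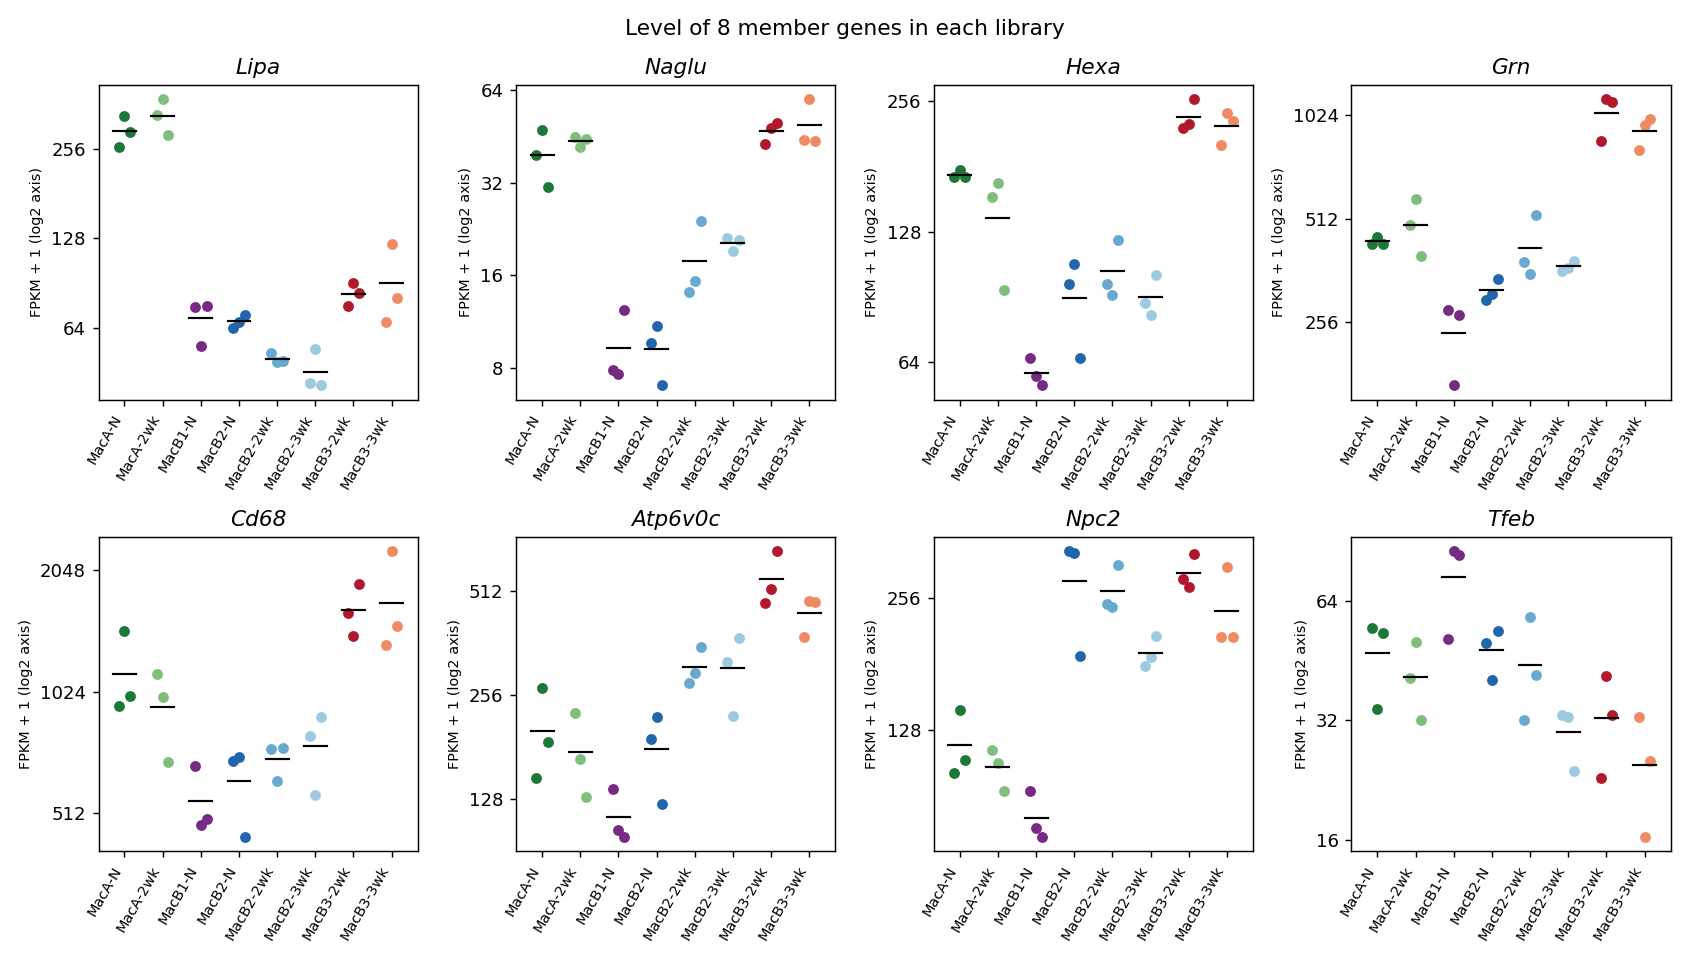
FPKM + 1 on a log2 axis of 8 lysosomal genes in each library (points) of the 8 groups, with bars at the group means. Lipa is high in the 6 MacA libraries, Naglu is high in MacA and MacB3, Hexa, Grn, Cd68 and Atp6v0c peak in MacB3, Npc2 is low in MacA and MacB1-N, and Tfeb is highest in MacB1-N.

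Cells of the same sort were compared between naive and tumour-bearing lungs. In MacA-2wk against MacA-N, limma called 0 of the 39 genes, where it called 0.787% of all genes, and 3 had an unadjusted p under 0.05. With so few genes called in all, a count of 0 among 39 does not set them apart. The median was -0.16 against 0.05 over all genes. Laptm5 had the largest difference, with 1774, 1509 and 1234 FPKM in MacA-2wk and 1906, 5908 and 2676 in MacA-N. The high value of 5908 came from 1 library, the ranges did not overlap, and the log2 fold change of -1.06 (SE 0.43, adjusted p = 0.346) was not called. Lipa stayed in the same range, at 330, 374 and 284 FPKM against 259, 329 and 289 (log2 fold change 0.17, 95% interval -0.23 to 0.57).

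In MacB2-2wk against MacB2-N, limma called 0 of the 39 genes as well (1.88% of all genes, again too few for the count to set the 39 apart), with 6 at an unadjusted p under 0.05 and a median of 0.19 against 0.03. Naglu came closest. It had 13.1, 14.3 and 23 FPKM in MacB2-2wk and 8.67, 9.94 and 6.03 in MacB2-N, groups that did not overlap, and a log2 fold change of 0.93 (SE 0.23, adjusted p = 0.038) under the fold minimum. It was called without MacB2-N replicate 2 (1.07) or without MacB2-2wk replicate 1 (1.08). Atp6v0c, the proteolipid that forms the rotating ring of the pump, had 277, 295 and 352 FPKM at 2 weeks and 190, 220 and 123 in MacB2-N, and did not pass (0.82, SE 0.27, adjusted p = 0.129). Within lanes 2, 3 and 7 the median over the 39 genes was 0.02, -0.06 and 0.46.

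At 3 weeks, 2 glycosidases were higher in MacB2 cells than in naive MacB2 cells, 2 of the 39 genes against 9.67% of all tested. Naglu was at 20.2, 18.2 and 19.9 FPKM in MacB2-3wk (log2 fold change 1.17, SE 0.23, adjusted p = 0.00108) and Gaa, the acid alpha-glucosidase that digests glycogen, at 91.6, 38.9 and 66.2 against 32.5, 34.0 and 23.8 (1.03, SE 0.27, adjusted p = 0.0104). None was called lower (5.04% of all), with 16 of 39 at an unadjusted p under 0.05 in either direction, but Gm2a (-0.94, adjusted p = 0.000499), Man2b1 (-0.83, adjusted p = 0.0134), Lipa (-0.57, adjusted p = 0.0402) and Ppt1 (-0.49, adjusted p = 0.0444) were lower by less than the fold minimum. The median was 0.07 against 0.00 over all genes, and -0.25, -0.12 and 0.40 within lanes 2, 3 and 7. Neither increase passed without MacB2-N replicate 3, when Naglu was at 0.99 and Gaa at 0.88 and Gm2a was the call, at -1.12 (adjusted p = 0.000118). Gaa was not called without MacB2-3wk replicate 1 (0.75) or replicate 3 (0.98), and without MacB2-N replicate 2 Mcoln1 (1.5) and Atp6v1c1 (1.08) were called as well. Without MacB2-3wk replicate 1, Gm2a (-1.01) was called lower. Of 10 fibroblast markers 6 were higher in MacB2-3wk, with sums of 653 to 1009 FPKM against 97.4 to 182 in MacB2-N, and no gene of this list was at 0. All 8 nonclassical monocyte markers were lower (450 to 881 against 2259 to 3171 FPKM). Of 9 classical monocyte markers 4 were lower and 1 higher (3129 to 3556 against 4599 to 5506). Of 11 interstitial and monocyte-derived macrophage markers 5 were higher and 1 lower (2557 to 4345 against 2119 to 3682). Of 10 epithelial markers 3 were lower and 2 higher (624 to 887 against 3377 to 10348). The part of these lists was not tested.

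The difference between the 2-week responses of MacB2 and MacA was tested directly as an interaction. Limma called 0 of the 39 genes (0.221% of all), and 6 had an unadjusted p under 0.05. Laptm5 had the largest difference of responses, 1.36 (SE 0.60, adjusted p = 0.469), and Atp6v0c the next, 1.02 (SE 0.38, adjusted p = 0.357).

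MacB3 cells of the tumour lobe carried more lysosomal transcripts than MacB2 cells of the same week. At 2 weeks 10 of the 39 genes were higher (3.15% of all tested) and none was lower (4.21% of all), with 20 at an unadjusted p under 0.05 in limma in either direction. The median was 0.52 against -0.08 over all genes, and 0.56, 0.64 and 0.48 within lanes 2, 3 and 7. At 3 weeks 7 were higher (1.61% of all) and none lower (1.03% of all), again with 20 at an unadjusted p under 0.05, a median of 0.46 against -0.04, and 0.30, 0.69 and 0.46 within the lanes. The comparisons of the 2 weeks share no library.

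Glycosidases made up the largest group among the genes that rose, with 4 of 9 at each week. Hexa had 221, 227 and 258 FPKM in MacB3-2wk and 95.8, 90.4 and 122 in MacB2-2wk, then 202, 240 and 230 in MacB3-3wk and 86.5, 81.3 and 101 in MacB2-3wk. Each MacB3 library was above each MacB2 library, and the log2 fold change was 1.2 (SE 0.20, adjusted p = 0.000652) at 2 weeks and 1.31 (SE 0.20, adjusted p = 0.000613) at 3 weeks. Naglu had 41.7, 47.3 and 49.1 FPKM in MacB3-2wk and 43.1, 58.6 and 42.7 in MacB3-3wk, against at most 23 in any MacB2 library (1.44, SE 0.23, adjusted p = 0.000399 and 1.25, SE 0.23, adjusted p = 0.0031).

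Gusb, beta-glucuronidase, was also higher at both weeks, with 172, 154 and 175 FPKM against 68.0, 87.2 and 93.1 at 2 weeks (1.02, adjusted p = 0.0092) and 161, 194 and 180 against 70.8, 59.8 and 100 at 3 weeks (1.23, adjusted p = 0.00507). The groups did not overlap at either week. At 2 weeks, though, it fell just under the fold minimum without MacB2-2wk replicate 1 (0.88), MacB3-2wk replicate 1 (0.996) or MacB3-2wk replicate 3 (0.98).

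Gaa and Man2b1 passed at 1 week each. Gaa was at 101, 83.6 and 126 FPKM against 34.5, 33.2 and 38.1 at 2 weeks (1.51, SE 0.27, adjusted p = 0.00123) and at 116, 114 and 96.7 against 91.6, 38.9 and 66.2 at 3 weeks (0.80, adjusted p = 0.128). Man2b1, lysosomal alpha-mannosidase, had 103, 64.8 and 114 FPKM against 78.7, 82.7 and 107 at 2 weeks (0.04) and 103, 124 and 111 against 58.0, 44.8 and 56.3 at 3 weeks (1.08, SE 0.23, adjusted p = 0.0102). The test of the difference between the weeks called neither gene, with a change of -0.71 (adjusted p = 0.806) for Gaa and 1.03 (adjusted p = 0.48) for Man2b1. Man2b1 was not called without MacB3-3wk replicate 2 (adjusted p = 0.0516) or MacB2-3wk replicate 2 (0.96), and Gaa was called at 3 weeks without MacB2-3wk replicate 1 (1.08, adjusted p = 0.0471).

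Grn, progranulin, which is cleaved to granulins inside lysosomes, was among the genes with the largest changes at both weeks. It had 859, 1140 and 1121 FPKM in MacB3-2wk against 381, 353 and 523 in MacB2-2wk, and 810, 956 and 1000 in MacB3-3wk against 360, 366 and 385 in MacB2-3wk. The lowest MacB3 library was above the highest MacB2 library, with log2 fold changes of 1.32 (SE 0.20, adjusted p = 0.000234) and 1.31 (SE 0.20, adjusted p = 0.000558). Tpp1 rose alongside, from 45.5, 35.1 and 41.9 FPKM to 91.7, 93.3 and 83.4 at 2 weeks (1.12, adjusted p = 0.00114) and from 41.1, 45.0 and 49.9 to 72.6, 120 and 91.4 at 3 weeks (1.02, adjusted p = 0.00567). Its call at 3 weeks was at the edge of the rule: it was lost without MacB3-3wk replicate 2 (0.84) or MacB2-3wk replicate 1 (0.95), with a pseudocount of 5 (0.96), with quantile normalization (0.995) or median ratio scaling (0.995), and with the compared groups alone (adjusted p = 0.0758).

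Of 8 membrane proteins, Cd68 and Npc1 were higher at 2 weeks and Cd68 at 3 weeks. Cd68 stood at 1600, 1409 and 1891 FPKM against 737, 613 and 742 at 2 weeks (1.22, SE 0.26, adjusted p = 0.00526), and at 1333, 2289 and 1486 against 795, 564 and 885 at 3 weeks (1.17, SE 0.26, adjusted p = 0.0151). The groups were apart at both weeks, but at 3 weeks the call rested on single libraries: without MacB3-3wk replicate 2 it was at 0.94 (adjusted p = 0.0998), and without MacB2-3wk replicate 2 at 0.98 (adjusted p = 0.0866). Npc1 had 77.8, 66.9 and 67.1 FPKM against 44.5, 24.2 and 31.0 at 2 weeks (1.10, adjusted p = 0.0113; 0.90, adjusted p = 0.0675, without MacB2-2wk replicate 2) and was at 0.83 at 3 weeks (adjusted p = 0.105). Lamp1 had 347, 340 and 384 FPKM against 230, 268 and 276 at 2 weeks and 312, 347 and 344 against 202, 224 and 209 at 3 weeks. It did not overlap between MacB3 and MacB2 at either week but missed the threshold (0.47, adjusted p = 0.108, and 0.66, adjusted p = 0.0507). Lamp2, its partner in the membrane, differed by -0.10 (95% interval -0.41 to 0.22) and -0.14 (-0.46 to 0.17).

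In the pump, the accessory subunit Atp6ap2, also known as the prorenin receptor, and the V0 subunit Atp6v0a1 were higher at 2 weeks. Atp6ap2 had 190, 159 and 172 FPKM against 68.9, 81.4 and 79.7 (1.17, SE 0.21, adjusted p = 0.00139), and at 3 weeks 123, 141 and 161 against 100, 80.1 and 105 (0.57, adjusted p = 0.185). Atp6v0a1 had 36.0, 28.2 and 27 FPKM against 18, 11.3 and 15.0 (1.00, adjusted p = 0.0308), without overlap. It sat at the edge of the rule and was not called when any of 5 libraries was left out, MacB2-2wk replicate 2 (0.84) or 3 (adjusted p = 0.0581) or MacB3-2wk replicate 1 (0.88), 2 (adjusted p = 0.0621) or 3 (adjusted p = 0.057). Of 6 V1 genes none was called at either week, and Atp6v1c1 was nearest, with 56.0, 50 and 58.6 FPKM against 30.0, 26.6 and 27.3 at 2 weeks (0.95, SE 0.20, adjusted p = 0.00406); it was called without MacB3-2wk replicate 2 (1.01). No lipid hydrolase, carrier or activator of 7 was called either. Lipa was nearest, at 0.73 (adjusted p = 0.0194) and 0.95 (adjusted p = 0.0071), and at 3 weeks it was called without MacB2-3wk replicate 2 (1.08), MacB3-3wk replicate 1 (1.14) or MacB3-3wk replicate 3 (1.00).

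**Figure D3:**
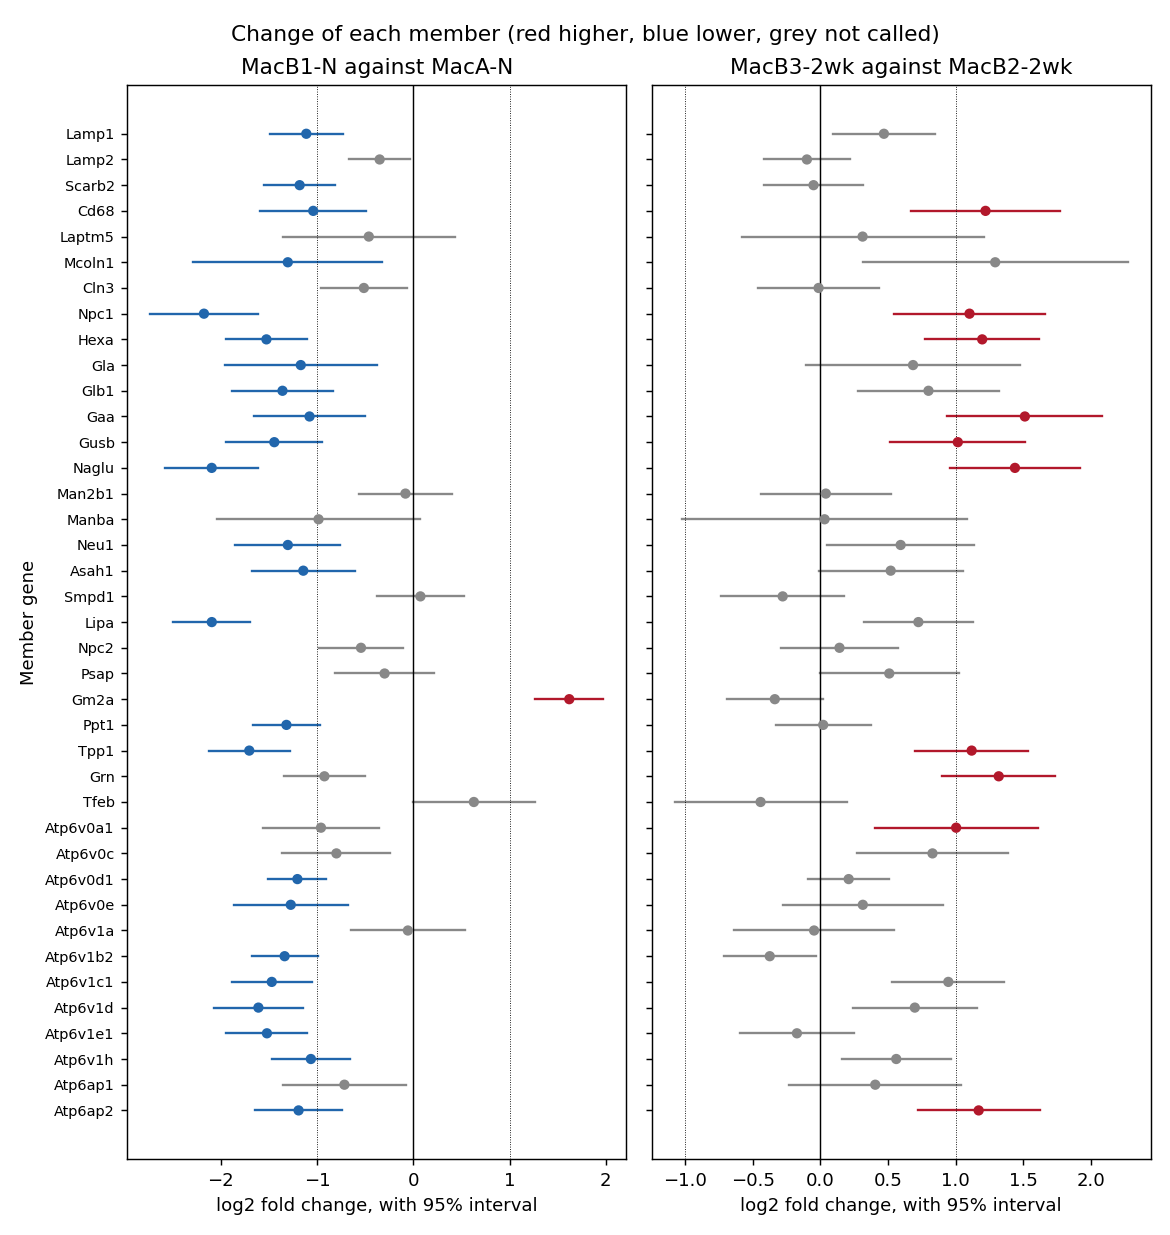
Log2 fold change of each of the 39 genes (points, with 95% intervals) for MacB1-N against MacA-N (left) and MacB3-2wk against MacB2-2wk (right); dotted lines mark a 2-fold change, and red, blue and grey mark genes called higher, called lower and not called. On the left 24 genes are called lower and Gm2a higher, and on the right 10 are called higher.

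The 2 weeks gave similar orders of genes. Over the 39 genes the log2 fold changes at 2 and 3 weeks correlated with r = 0.72, against r = 0.43 over all 17156 genes. Points are genes, which are not independent, and the weeks share lanes and replicate numbers. The sets also differ in spread. In these MacB2 and MacB3 groups the median within-group SD of log2(FPKM + 1) was 0.13 to 0.21 over the 39 genes. Over all genes tested it was 0.25 to 0.34, so the higher r does not by itself set the 39 apart. Hexa, Gusb, Naglu, Cd68, Tpp1 and Grn were called at both weeks, 6 of the 10 called at 2 weeks and 6 of the 7 called at 3 weeks. Of these 6, the calls of Tpp1, Cd68 and Gusb at 3 weeks and of Gusb at 2 weeks were lost under at least 1 alternative. Over all genes 321 were called at both, of 1263 and 453. The test of the difference between weeks called 0 of the 39 in limma (0% of all genes), with 1 at an unadjusted p under 0.05. MacB3-3wk against MacB3-2wk called 0 as well (0.315% of all), with 1 at an unadjusted p under 0.05, a median of -0.07 against 0.01, and -0.18, 0.15 and -0.16 within lanes 2, 3 and 7. The widest of these differences was that of Atp6v1h, -0.56 (SE 0.19, adjusted p = 0.299).

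**Figure D4:**
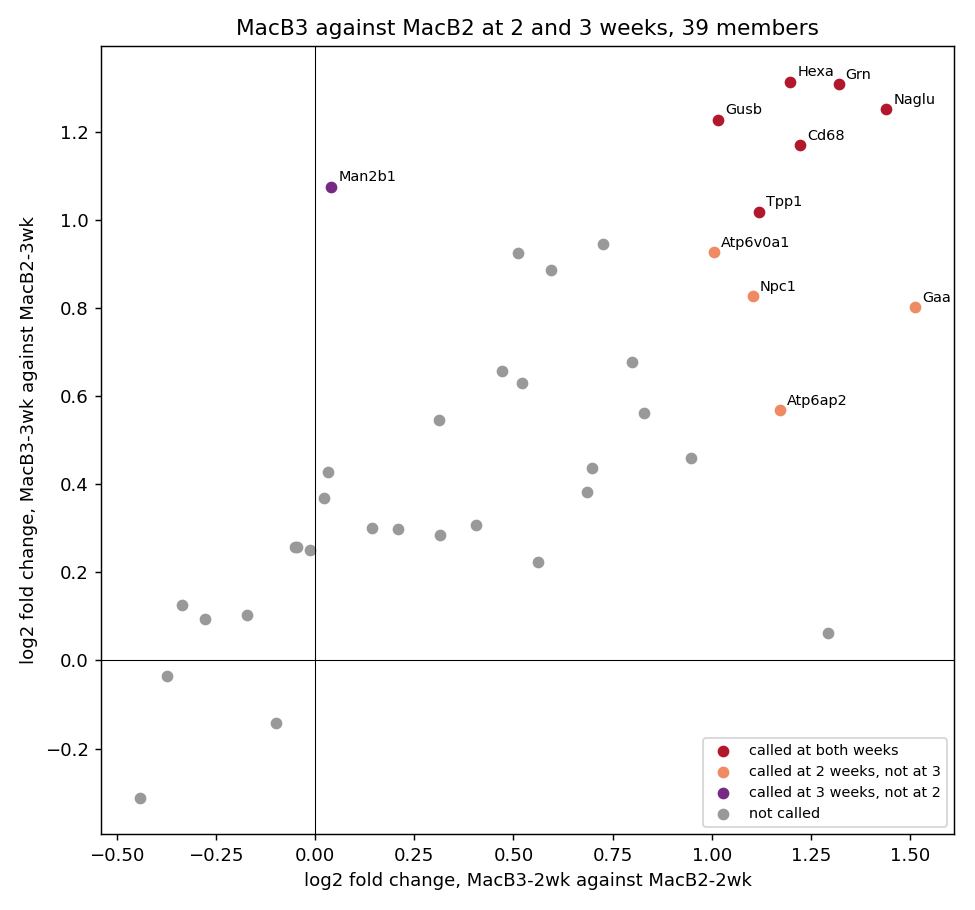
Log2 fold change of MacB3 against MacB2 at 2 weeks (x axis) and at 3 weeks (y axis) for the 39 genes (points), coloured by the week or weeks at which a gene was called. Hexa, Gusb, Naglu, Cd68, Tpp1 and Grn, called at both weeks, lie at the upper right, and Man2b1 lies near 0 on the x axis.

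Markers of other cells and of macrophages moved with MacB3. Of 11 markers of interstitial and monocyte-derived macrophages 8 were higher than in MacB2 at 2 weeks and 9 at 3 weeks, with sums of 9561 to 16997 FPKM in the 6 MacB3 libraries and 2236 to 4345 in the 6 MacB2 libraries of the tumour groups. Of 9 classical monocyte markers 8 were lower at 2 weeks and 6 at 3 weeks, with sums of 1257 to 2658 against 3129 to 4579. At 2 weeks 5 of 10 endothelial markers (68.1 to 113 against 178 to 561 FPKM) and 4 of 8 nonclassical monocyte markers (341 to 925 against 1032 to 1710) were lower too. No gene of these 4 lists was at 0 in all 3 libraries of a group. Their part in the lysosomal differences was not tested.

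MacB3-2wk was also compared with MacA-2wk. Of the 39, 5 were higher (7.20% of all tested) and 2 were lower (7.28% of all), and the median was 0.11 against -0.06. Atp6v0c had 471, 516 and 667 FPKM in MacB3-2wk against 226, 166 and 129 in MacA-2wk (1.69, SE 0.27, adjusted p = 0.000117). Npc2 had 282, 270 and 323 against 114, 106 and 91.4 (1.48, SE 0.21, adjusted p = 2.8e-05), Gm2a 341, 280 and 370 against 154, 151 and 131 (1.17, adjusted p = 4.1e-05), and Laptm5 4623, 3394 and 5521 against 1774, 1509 and 1234 (1.57, adjusted p = 0.012). All 4, named for the size of their change, were above MacA-2wk in every MacB3-2wk library. Grn was higher too (1.09, adjusted p = 0.000456), but it stood at 0.95 without MacA-2wk replicate 3, and Laptm5 missed the threshold without MacB3-2wk replicate 3 (adjusted p = 0.0558). Gaa was called without MacA-2wk replicate 1 (1.06) or MacB3-2wk replicate 2 (1.00). Of 12 alveolar macrophage markers 11 were lower in MacB3-2wk and 1 was higher (373 to 649 against 7281 to 9258 FPKM). In all MacB3-2wk libraries 1 of the 12 was at 0. Of 11 interstitial and monocyte-derived macrophage markers 9 were higher and 1 lower (9561 to 12873 against 612 to 1532). The part of these lists was not tested.

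Lipa and Scarb2 were the genes that were lower in MacB3-2wk than in MacA-2wk. Lipa had 75.1, 89.9 and 82.9 FPKM in MacB3-2wk and 330, 374 and 284 in MacA-2wk (-1.98, SE 0.19, adjusted p = 2.95e-07). Scarb2, which carries glucocerebrosidase to the lysosome, had 44.8, 56.2 and 36.8 against 127, 121 and 103 (-1.34, SE 0.18, adjusted p = 1.25e-05). In all 18 MacB libraries, from naive and tumour-bearing mice, Lipa lay between 40.2 and 122 FPKM and Scarb2 between 31.8 and 56.2, below all 6 MacA libraries, whose lowest values were 259 and 99.2.

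MacB3-2wk and MacB1-N were both CD11c+ and CD11b+. In MacB3-2wk 20 of the 39 genes were higher than in MacB1-N (8.32% of all tested) and 1 was lower (13.1% of all), with a median of 1.02 against -0.11 over all genes and of 1.00, 1.02 and 1.33 within lanes 2, 3 and 7. The 20 held 6 of 9 glycosidases, 3 of 8 membrane proteins, 3 of 7 lipid genes, both Tpp1 and Grn, and 6 of 12 pump genes. Naglu rose the most (2.37, SE 0.23, adjusted p = 3.76e-07), from 6.88, 6.64 and 11.4 FPKM to 41.7, 47.3 and 49.1. Atp6v0c rose from 135, 103 and 98.2 FPKM to 471, 516 and 667 (2.29, SE 0.27, adjusted p = 3.7e-06). Grn, from 276, 166 and 267 FPKM, changed by 2.16 (SE 0.20, adjusted p = 2.09e-07), and Hexa by 1.97 (SE 0.20, adjusted p = 7.41e-07). No library of one group reached the range of the other for any of these 4. They were named for the size of their change, and how many of all genes were so separated was not counted. Lamp1 (1.02, adjusted p = 0.000315) was not called without MacB1-N replicate 3 (0.91) or MacB3-2wk replicate 3 (0.97), and Atp6v1a (1.07, adjusted p = 0.00709) not without MacB1-N replicate 2 (0.97). Laptm5 was called without MacB1-N replicate 1 (1.28), and Atp6v0e without MacB1-N replicate 1 (1.05) or 2 (1.09) or MacB3-2wk replicate 1 (1.12). This comparison shares the MacB1-N libraries with that against MacA-N, and the marker sums given there for MacB1-N apply here too. All 8 nonclassical monocyte and all 10 endothelial markers and 6 of 8 dendritic cell markers were lower in MacB3-2wk. Of 10 epithelial markers 7 were lower too, with sums of 167 to 593 FPKM in MacB3-2wk. So were 5 of 10 fibroblast markers. Of 10 tested T, NK and B cell markers 6 were lower and 1 higher. Of 11 interstitial and monocyte-derived macrophage markers 10 were higher. The part of these lists was not tested.

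The transcript of Tfeb, the transcription factor, did not follow those of most other genes on the list. It had 50.3, 84.7 and 82.9 FPKM in MacB1-N, the group in which most of the 39 were lowest, and 21.8, 40.5 and 32.0 in MacB3-2wk. The groups did not overlap, and the log2 fold change of -1.19 (SE 0.30, adjusted p = 0.00596) made it the 1 gene that was lower in MacB3-2wk. Without MacB3-2wk replicate 1 it was at -0.96 and not called. MacA-N averaged 46.4 ± 11.4 FPKM and MacB2-N 47.2 ± 6.99, while MacB2-3wk averaged 28.9 ± 5.24 and MacB3-3wk 23.7 ± 8.25 (SD, n = 3 each). MacA-N and MacB2-N overlapped, as did MacB2-3wk and MacB3-3wk. No other comparison called Tfeb, nor did that of MacB1-N with MacA-N (log2 fold change 0.63). Of the 10 genes with the motif TCACGTG in the promoter, 8 were lower in MacB1-N than in MacA-N, and of the 24 without it 11 (8.71% of all genes tested). The calls of Lamp1, Mcoln1, Gla, Glb1 and Gaa, with the motif, were lost under at least 1 alternative. Among those without it only the call of Cd68 was. In MacB3-2wk against MacB1-N, 6 of the 10 and 11 of the 24 were higher (8.32% of all). There the calls of Lamp1 and Atp6v1a, with the motif, and Psap, without it, were lost under at least 1 alternative. These counts are over few genes and were not tested. Transcript levels do not show the amount or activity of the Tfeb protein, and its part was not tested.

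Other genes of the pathway, 98 by name of which 93 passed the filter, were tested in the same fit. In MacB1-N against MacA-N 29 were lower (8.71% of all genes) and 7 higher (15.0%), and in MacB2-N against MacA-N 24 were lower (10.2%) and 5 higher (10.7%). In MacB3-2wk against MacB1-N 30 were higher (8.32% of all genes) and 5 lower (13.1%). Atp6v0d2, a V0 subunit known from osteoclasts, had 553, 634 and 531 FPKM in MacA-N and 2.96, 3.35 and 26 in MacB1-N (-6.21, SE 0.61, adjusted p = 2.09e-07), the largest fall. Mcoln3, a relative of Mcoln1, had 161, 159 and 157 against 0.225, 0.744 and 6.25 (-6.00), and the 3 MacB2-N libraries listed it at 0. MacB1-N replicate 3 held the highest value of the group for both genes. Slc11a1, a metal transporter of phagosomes, went up instead, from 20.9, 7.67 and 10.1 FPKM to 433, 440 and 292 (4.9, SE 0.31, adjusted p = 8.07e-10).

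In MacB3 against MacB2, 14 of the 93 were higher (3.15% of all genes) and 1, the sorting receptor Sort1 (-1.73), was lower (4.21% of all) at 2 weeks. At 3 weeks 8 were higher (1.61% of all genes). Acp2, lysosomal acid phosphatase, had 512, 622 and 649 against 155, 145 and 102 at 2 weeks (2.16, SE 0.24, adjusted p = 1.35e-05) and 556, 490 and 554 against 133, 103 and 165 at 3 weeks (2.01). The groups were separated without overlap at both weeks.

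Within MacB2, 0 and then 2 of the 39 genes were called against MacB2-N. Of the 93, 4 were higher and 0 lower at 2 weeks (1.88% of all genes in either direction). At 3 weeks 8 were higher (9.67% of all) and 3 lower (5.04% of all), counts that do not set the 93 apart. Gpnmb, Acp5 and Cd63 were among those higher at both weeks. Gpnmb, a membrane glycoprotein of lysosome-related organelles, had 1.09, 1.38 and 2.19 FPKM in naive MacB2 cells, 55.9, 17.3 and 54.2 at 2 weeks (3.94, SE 0.54, adjusted p = 0.000486) and 71.2, 82.0 and 106 at 3 weeks (5.10, SE 0.54, adjusted p = 2.35e-06). Acp5, tartrate-resistant acid phosphatase, went from 20.6, 11.3 and 5.89 to 215, 54.3 and 117 and then 89.9, 116 and 254 (3.20 and 3.51), and Cd63, a tetraspanin, from 3.22, 1.41 and 5.28 to 26.2, 12.6 and 17.8 and then 38.7, 60 and 35.8 (2.26 and 3.48). All libraries of either week were above all MacB2-N libraries for these 3 genes. Their calls at 3 weeks were kept under every alternative. At 2 weeks each call was lost under 1 of 16 alternatives. The highest limma adjusted p there was 0.0969 for Gpnmb, 0.188 for Acp5 and 0.187 for Cd63.

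**Figure D5:**
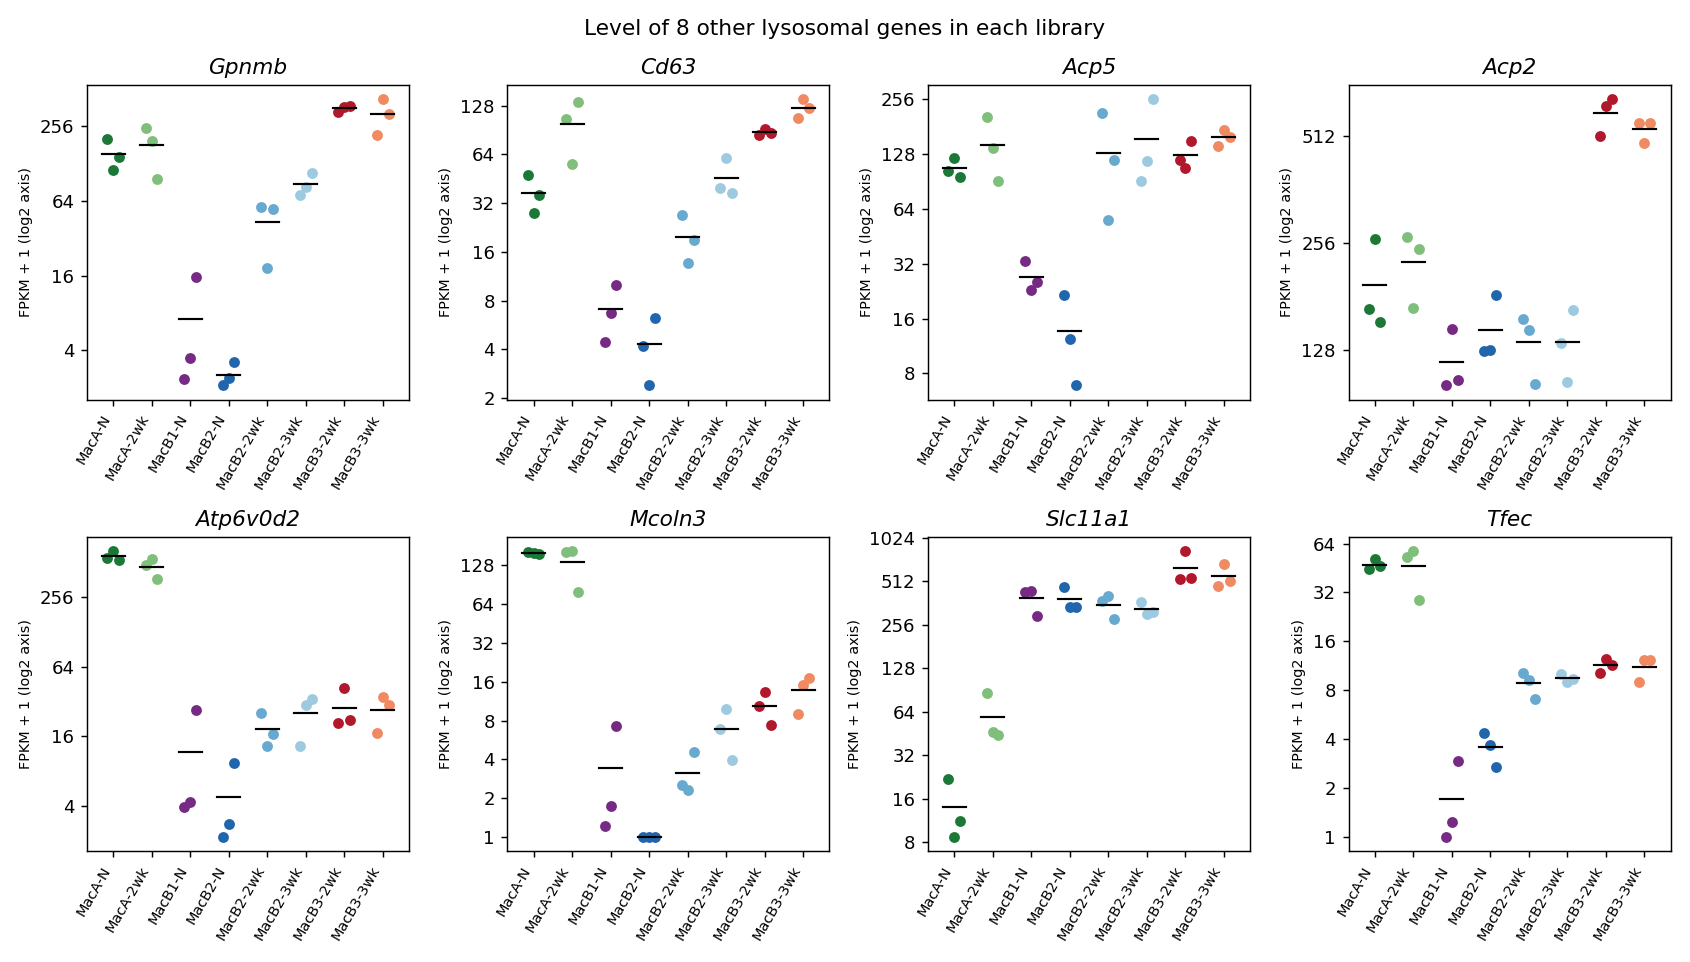
FPKM + 1 on a log2 axis of 8 further lysosomal genes in each library (points) of the 8 groups, with bars at the group means. Atp6v0d2, Mcoln3 and Tfec are high in MacA, Slc11a1 is low there, Acp2 is higher in MacB3 than in MacB2 of the same week, and Gpnmb, Acp5 and Cd63 are higher in MacB2 of tumour lobes than in MacB2-N.

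Some of these levels can hold reads of other genes. In GENCODE M21 (GRCm38), 13 of the 39 genes overlap another annotated gene, 11 of them a gene on the opposite strand, and the sources used here do not say whether the counting used strand. Lamp1 (chr8:13159161-13175338) shares 3317 bases with Grtp1, Glb1 (chr9:114401076-114474898) shares 6172 with Tmppe on its own strand, Hexa (chr9:59539540-59565109) shares 308 with Tmem202, and Grn (chr11:102430315-102437048) shares 68 with Fam171a2. Atp6v0c (chr17:24163866-24169702) has 2 annotated pseudogenes that bear its name, so its level is uncertain. Lipa, Naglu, Cd68, Npc2, Gm2a and Tfeb overlap no other gene in that annotation.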

How the data were processed

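RNA sequencing values of 24 libraries, 3 in each of 8 groups, were used. Per the labels, total RNA was made into libraries with a NuGen FFPE kit. Per the submitters' processing notes, the authors used FastQC, TopHat2 2 and Cufflinks 2.0.2, and the deposited table was taken as FPKM from those notes, since its header names no unit. Library sums were 1880240 to 4868370 FPKM, and 14133 genes were at 0 throughout. FPKM hold no counts, and no reliable depth could be read from the steps between low values, so depth is unknown and no counting interval is given.

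The table's loci differed from GRCm38, so positions came from GENCODE M21 by Ensembl identifier. Values were taken as log2(FPKM + 1). In limma 3.58.1 (R 4.3.3) the model held a mean for each group over all libraries, which left 16 residual degrees of freedom, with a variance trend, and gave 13 comparisons. P-values were adjusted by Benjamini-Hochberg over 17156 genes. Where groups are said not to overlap, this describes the named genes only. The share of all genes so separated was not counted. The fit was tested on simulated data with independent errors, scored by the adjusted p alone. The calling rule with its 2-fold minimum was not tested there. The members and lists were chosen with earlier results of these data known. The rule gave library values for up to 4 members with the largest change in each direction, for Lamp1, Cd68, Lipa, Atp6v0c and Tfeb, and for up to 3 other pathway genes per direction; further genes were added after their values were seen. The series' design text gives the MacB3 samples of 2 weeks the 3-week name, and the titles were followed.

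By label, a replicate number marks a shared run lane in MacB. Over the 45 same-numbered MacB pairs the deviations correlated with a median r of 0.00 (-0.07 to 0.21), with 1 pair over 0.1. Alternatives were 2 pseudocounts, 2 filters, 2 rescalings, no variance trend, a replicate block, the compared groups alone, and each library left out.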

Additional observations from a re-analysis of the deposited data

Results flagged for a closer look

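The 2-week response differed between MacB2 and MacA cells for 2 other lysosomal genes, by the interaction test in limma. Gpnmb rose in MacB2 by 3.94 on the log2(FPKM + 1) scale and differed by 0.16 in MacA, a difference of responses of 3.78 (SE 0.77, adjusted p = 0.0459). All 3 MacB2-2wk libraries (55.9, 17.3 and 54.2 FPKM) were above the MacB2-N libraries, while MacA-2wk (248, 194 and 95.4) overlapped MacA-N (201, 112 and 144). Slc11a1 was higher in MacA-2wk than in MacA-N by 2.13 and differed by -0.12 in MacB2, a difference of -2.25 (SE 0.44, adjusted p = 0.0396). It had 85.2, 45.6 and 43.3 FPKM in MacA-2wk and 20.9, 7.67 and 10.1 in MacA-N. Of 11 interstitial and monocyte-derived macrophage markers 4 were also higher in MacA-2wk than in MacA-N, as was 1 of 9 classical monocyte markers, and none was lower. Itgam (CD11b) was at 10.3 to 24.5 FPKM in MacA-2wk and 0.68 to 4.65 in MacA-N. The part of such cells in the MacA-2wk libraries was not tested.

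Both adjusted p-values lay close to the threshold. Over 22 alternatives the Gpnmb difference ran from 2.56 to 4.40, with an adjusted p of 0.0203 to 0.149, and 18 of the 22 took it over 0.05. The Slc11a1 difference ran from -2.64 to -1.94, with an adjusted p of 0.00751 to 0.266, over 0.05 in 13 of the 22. With the replicate block the adjusted p for Gpnmb was 0.0686.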

How the results depend on the processing

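Of the 87 calls made on the 39 genes, 57 were kept under every alternative run, 30 were lost under at least 1, and none changed sign. A replicate block changed no count: with it the comparisons gave 25, 14, 1, 0, 0, 2, 10, 7, 0, 7, 21, 0 and 0 calls, in the order MacB1-N and MacB2-N against MacA-N, MacB1-N against MacB2-N, MacA-2wk against MacA-N, MacB2-2wk and MacB2-3wk against MacB2-N, MacB3 against MacB2 at 2 and 3 weeks, MacB3-3wk against MacB3-2wk, MacB3-2wk against MacA-2wk and MacB1-N, and the 2 interactions. With only the compared groups fitted, calls went from 1 to 0 for MacB1-N against MacB2-N, from 2 to 1 for MacB2-3wk against MacB2-N and from 7 to 4 for MacB3-3wk against MacB2-3wk. With that fit the lower calls of MacB2-N against MacA-N went from 12 to 9, and the higher calls of MacB3-2wk against MacB2-2wk from 10 to 8. A pseudocount of 0.1 took MacB2-2wk against MacB2-N from 0 to 1, and 5 took MacB2-3wk against MacB2-N from 2 to 0. Leaving out 1 library at a time gave 1 to 3, 0 to 1, 1 to 4 and 4 to 8 calls for MacB1-N against MacB2-N, MacB2-2wk and MacB2-3wk against MacB2-N, and MacB3-3wk against MacB2-3wk; the 4 came without MacB3-3wk replicate 2. Without both MacA-2wk replicate 3 and MacB2-N replicate 3, an alternative chosen after seeing the data, calls were 3 for MacB1-N against MacB2-N and 1 for MacB2-3wk against MacB2-N. Quantile normalization took MacB3-2wk against MacA-2wk from 7 to 4 and the lower calls of MacB2-N against MacA-N from 12 to 17. It moved the median of all genes by -0.15 for MacB1-N against MacA-N, where all genes split into 1930 higher and 2161 lower (2572 and 1495 without it) and the 39 into 1 and 26, by -0.11 for MacB1-N against MacB2-N (423 and 422, from 601 and 292) and by 0.12 for MacB3-2wk against MacB1-N (1839 and 1711, from 1427 and 2254; the 39 into 19 and 1). It also moved the split for MacB2-3wk against MacB2-N (1374 and 1234, from 1659 and 865) and MacB3-2wk against MacB2-2wk (676 and 527, from 541 and 722). The cause of these shifts was not tested. With 3 libraries a group and unknown depth, differences under 2-fold were not called here.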
